A study of Mus musculus and Homo sapiens with 176 samples.

Results

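Nuclei of mouse prefrontal cortex, sorted into those that stained for NeuN (NeuN+) and those that did not (NeuN-), were compared by RNA sequencing across all genes. Features of the gene annotation were kept where their FPKM (a fragment count divided by transcript length and library size) reached 1 in at least 2 of the 4 prefrontal libraries with an accepted quantification status. This left 13146 of 24854 features. Of the others, 11706 were below the minimum, among them 6465 listed at 0 in all 4 libraries, and 2 had a failed status. The rule used the levels in both gates together and not their difference.

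The study profiled RNA and histone marks of sorted nuclei in cerebellum and prefrontal cortex, and its RNA part holds 8 libraries among 176 samples. The groups used here are prefrontal NeuN+ (2 libraries) and prefrontal NeuN- (2 libraries), all from 1 mouse, M3. Per the labels, the mice were C57Bl/6 animals of 8 to 10 weeks, and no treatment or modified allele is named for either gate. The 4 cerebellar libraries of the same mouse entered the scaling factors, the estimate of the spread and a comparison of the gate change between the regions. Because 1 animal gave all libraries, p-values measure the spread between 2 libraries of a gate, which may be technical, and not that between mice.

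NeuN is the product of Rbfox3, a splicing factor of the nuclei of most mature neurons, and sorting on it separates neuronal nuclei from those of glia and vessels. Cortical neurons comprise glutamatergic projection neurons, arranged by layer, and GABAergic interneurons. The NeuN- fraction of cortex holds nuclei of oligodendrocytes and their precursors, astrocytes, microglia and vascular cells, together with neurons that stain weakly. Nuclear RNA contains unspliced and newly made transcripts as well as finished messages, so its levels follow those of whole cells only in part.

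FPKM summed to 307198 and 305653 in the NeuN+ libraries and to 426851 and 414230 in the NeuN- libraries. Low values put the NeuN- libraries at 1.38 to 1.51 times the depth of the shallowest NeuN+ library, and the absolute depth is unknown. Of the kept features, 2095 share positions with another feature, and fragments of such pairs may be split between them. Among genes named below these are Acvr2a, Cers2, Cstf2, Eif4a2, Ftx, Homer3, Khdrbs2, Mrpl53, Rbbp7, Snora81 and Tmem181a. An exact 0 can be a failed estimate, so such values are given as listed at 0. Below, a level is a scaled FPKM, that is, the FPKM multiplied by a factor of its library (1.04 and 1.03 for NeuN+, 0.869 and 0.887 for NeuN-). Levels are given per library, replicate 1 first, and folds are ratios of scaled FPKM + 1. A feature was called where its adjusted p in limma, a linear model with a moderated variance, was under 0.05 after Benjamini-Hochberg adjustment over the 13146 features.

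The gates differed in most of the transcriptome, and most of the large differences lay on the NeuN- side. Of 13146 features, 9928 were called (75.5%), 4724 higher in NeuN+ (35.9%) and 5204 lower (39.6%). With a change of at least 2-fold there were 1332 higher (10.1%) and 1920 lower (14.6%). Between 4-fold and 16-fold the counts were 189 higher and 565 lower, and at 16-fold or more they were 39 and 103. The libraries of the gates did not overlap for 5534 features higher in NeuN+ (42.1%) and 5985 lower (45.5%). Small changes were balanced, with 2031 higher and 1973 lower under 1.5-fold. The median log2 change over all features was -0.03. It moved to -0.23 without scaling, 0.15 with a common FPKM sum and 0.07 with quantile normalization, and the share of calls that were higher moved from 47.6% to 35.4%, 59.5% and 54.6%. Medians and counts of lists below are to be read against those of all features. Some features passed the minimum of 1 FPKM through 1 gate alone, so that the filter fixed their direction: 689 of the higher calls were under 1 FPKM in both NeuN- libraries, and 1322 of the lower calls in both NeuN+ libraries. The gate change differed from that of the cerebellum, by an interaction contrast in limma, for 9275 of 13139 features (70.6%). In bulk RNA of sorted nuclei, fewer nuclei of a type and less RNA per nucleus cannot be told apart.

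**Figure D1:**
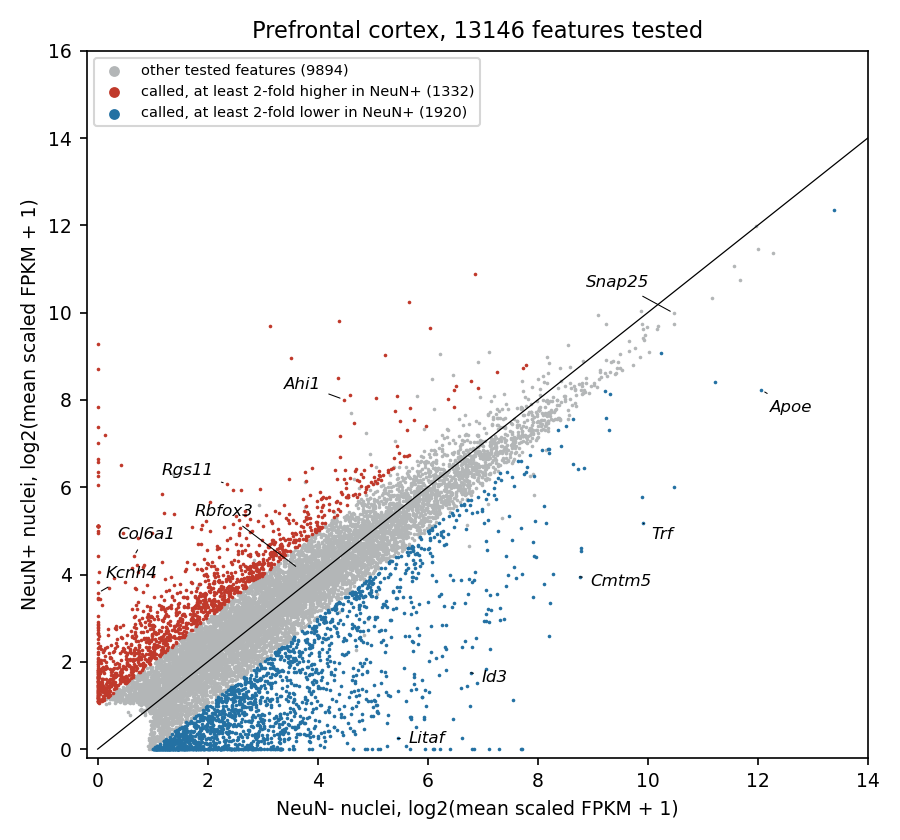
Mean scaled FPKM + 1 of each of the 13146 tested features in NeuN- (x axis) and NeuN+ nuclei (y axis), both on a log2 scale, with the line of equal levels. Red points (1332) were called at least 2-fold higher in NeuN+ and blue points (1920) at least 2-fold lower, and the blue points outnumber the red ones.

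The gene of the sorting antigen separated the gates weakly at the RNA level. Rbfox3 stood at 16.8 and 16.3 in the NeuN+ libraries and at 12.4 and 10.9 in the NeuN- libraries (1.39-fold, SE 0.0636 on the log2 scale, limma adjusted p = 4.49e-04). The gates did not overlap, as for 42.1% of all features on the higher side, but the difference was small beside those of glial genes. Messages of neurons were abundant in both gates. Snap25, which encodes a protein of the vesicle fusion machinery of nerve terminals, was at 1015 and 1010.3 in NeuN+ and at 1372 and 1476 in NeuN-, and thus 1.4-fold lower in NeuN+ (limma adjusted p = 2.00e-04), a call that quantile normalization ended (log2 change -0.01). Sst, the somatostatin gene of an interneuron class, was at 835 and 749 in NeuN+ and 1192 and 1097 in NeuN- and was not called (limma adjusted p = 0.0641), although it was called lower in a fit without scaling and in a fit of the 4 prefrontal libraries alone.

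The most abundant protein-coding messages were largely shared between gates. Rsrp1, a gene of an arginine- and serine-rich protein, led NeuN+ with 4124 and 4026 and had 3808 and 4244 in NeuN-. Calm2 (calmodulin), Ubb (ubiquitin), Ppia (cyclophilin A), Snap25 and Stmn1 (stathmin) were among the 10 most abundant in both gates. Each of these 5 was called lower in NeuN+, Ubb by 1.89-fold and Calm2 by 1.46-fold, although with quantile normalization the log2 change of Calm2 turned to 0.17 and Ppia lost its call. The NeuN- list also held secreted proteins of glia. Apoe, the lipid carrier of astrocytes and microglia, was at 294 and 305 in NeuN+ and at 4187 and 4362 in NeuN-, 14.2-fold lower (limma adjusted p = 3.63e-08). Cst3 (cystatin C) was at 343 and 339.5 against 2497 and 2270.1, and Ptgds (prostaglandin D2 synthase) at 65.6 and 60.4 against 1458 and 1387. Both Cst3 and Apoe still ran at 294 or more in both NeuN+ libraries.

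**Figure D2:**
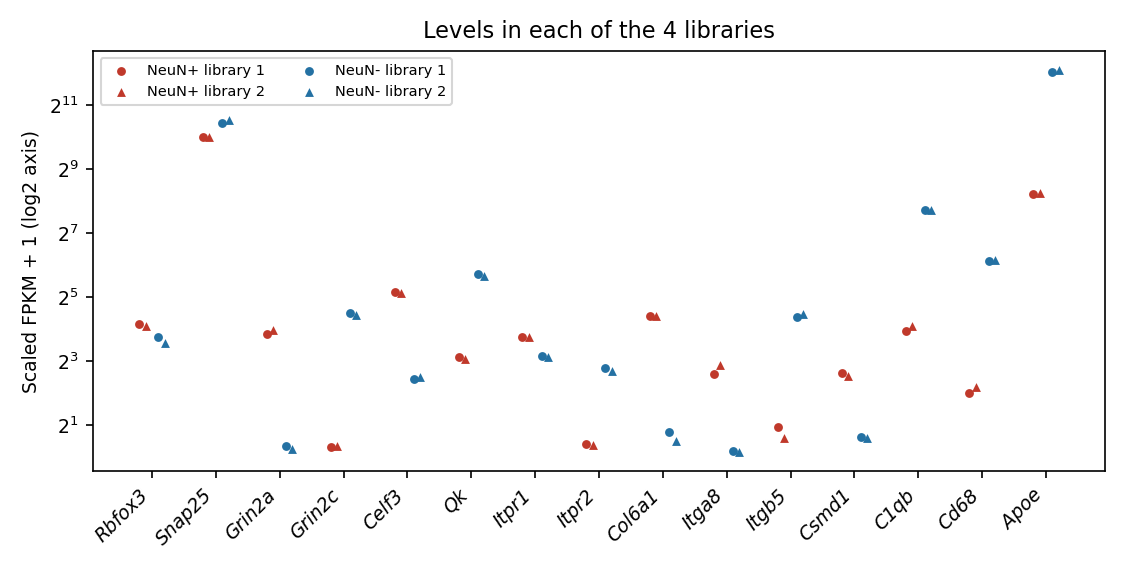
Scaled FPKM + 1 on a log2 axis for 15 genes, with NeuN+ libraries in red and NeuN- libraries in blue, circles for replicate 1 and triangles for replicate 2. Paired genes of 1 family, such as Grin2a and Grin2c or Itpr1 and Itpr2, lie on opposite sides, while Snap25 and Rbfox3 differ little.

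The cell type lists separated glia from neurons unevenly. All 20 astrocyte genes, 13 tested oligodendrocyte precursor genes, 23 tested mature oligodendrocyte genes and 20 tested microglial genes were lower in NeuN+, against 39.6% of all features. Their median log2 changes were -3.12, -2.87, -3.82 and -3.66. Of these genes 5, 8, 7 and 5 were under 1 FPKM in both NeuN+ libraries and passed the filter through NeuN- alone. The summed level of the astrocyte genes was 154 in each NeuN+ library and 2115 and 2176 in the NeuN- libraries. That of the mature oligodendrocyte genes was 243 and 235 against 3762 and 3900. These lists moved with every group of genes described below as mostly lower in NeuN+, and their part in those results was not tested. Neuronal lists moved far less. The 8 tested upper-layer genes had 5 higher and 2 lower (median 0.73), and the 16 tested deep-layer genes 7 higher, 3 lower and 6 without a call (median 0.09). The higher share of all features was 35.9%.

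Within the upper-layer list, Otof (otoferlin) stood at 2.32 and 2.72 in NeuN+ and at 0.0677 and 0 in NeuN-, 3.4-fold higher. Rasgrf2, a Ras exchange factor of upper-layer neurons, was at 8.64 and 8.7 against 4.1 and 3.38. The POU factor genes Pou3f2 and Pou3f3 went the other way, with Pou3f3 at 3.26 and 3.4 against 8.89 and 9.31. All 4 showed gates that did not overlap, as did 42.1% of all features on the higher and 45.5% on the lower side. In the deep-layer list, Hs3st4, a heparan sulfate sulfotransferase gene, was 2.92-fold higher at 8.68 and 9.66 against 2.32 and 2.65. Pcp4, a calmodulin-binding peptide, was 1.55-fold lower at 354 and 352 against 591 and 511. Pcp4 holds most of the summed level of the deep-layer list, and that sum was lower in NeuN+ (505 and 509) than in NeuN- (741 and 654) while more of its members were higher.

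The interneuron lists gave different counts, to be read beside 35.9% higher and 39.6% lower of all features. Of 7 tested genes of the Vip and Lamp5 classes, 6 were higher in NeuN+, 0 lower and 1 not called (median 0.40). Crh (corticotropin-releasing hormone) was at 17.4 and 18.3 against 4.46 and 4.44, Cnr1 (the cannabinoid receptor CB1) at 20.2 and 20.4 against 8.23 and 7.96, and Vip itself at 66.9 and 69.4 against 55.3 and 56.3. Both NeuN+ libraries lay above both NeuN- libraries for each of them, as for 42.1% of all features. The call of Vip was lost without scaling and with a pseudocount of 0.1. Of 8 tested genes of the Pvalb and Sst classes, 2 were higher, 3 lower and 3 not called (median -0.27). The transcription factor genes Satb1 and Lhx6 were 2.87-fold and 2.01-fold higher, and Sox6 was 2.15-fold lower, at 1.42 and 1.4 against 4.44 and 3.92. Sox6 is also expressed by oligodendrocyte precursors. Of 6 tested genes of GABAergic neurons in general, 2 were higher, 1 lower and 3 not called (median 0.02). Gad2, a GABA-synthesizing enzyme, was 2.24-fold higher, and the gene of the second such enzyme, Gad1, was not called, although it was called higher at a common FPKM sum, with quantile normalization and without NeuN- replicate 2. The difference between the interneuron classes was not tested.

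Of 6 tested genes of striatal projection neurons, 4 were higher in NeuN+ (66.7%, beside 35.9% of all features), 1 was lower and 1 was not called. The dopamine receptor gene Drd1 was at 5.03 and 5.73 in NeuN+ and 0.953 and 0.491 in NeuN-, and Penk (proenkephalin), which cortical interneurons express too, at 70 and 72.1 against 58.5 and 56.3, a difference not called without scaling. Drd2 and Adora2a, which define the indirect pathway neurons, were listed at 0 in all 4 libraries. None of the 10 ependymal and choroid plexus genes reached the filter.

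Vascular lists were only partly present. Of 20 endothelial genes, 13 stayed below the filter and of the other 7, 1 was higher, 3 lower and 3 not called (median -0.15). The lower share of 42.9% was near the 39.6% of all features. Those below it included Cldn5, Pecam1, Flt1 and Cdh5, all listed at under 1 FPKM in each library. Pecam1 was listed at 0 in all 4. The gene that was higher was Esam, of an adhesion molecule of endothelial junctions, 2.38-fold at 4.16 and 3.46 against 0.716 and 1.37. On the lower side Slco1c1, a thyroid hormone transporter, was at 1.57 and 1.57 in NeuN+ and 49.4 and 52.5 in NeuN-, and the lipid transporter gene Mfsd2a at 1.57 and 1.64 against 52.6 and 55.7. Slco1c1 is known in astrocytes as well. Of 13 tested mural and fibroblast genes, 12 were lower (9 of them under 1 FPKM in both NeuN+ libraries) and 1 was not called (median -1.74), and Vtn (vitronectin), a pericyte gene, was at 1.49 and 1.78 against 90.6 and 103, 37.1-fold lower. The potassium channel gene Kcnj8 and the fibroblast gene Dcn (decorin) were listed at 0 in both NeuN+ libraries and stood at 5.17 and 5.58 and at 5.75 and 6.49 in NeuN-. Of 12 genes of border macrophages and blood leukocytes only Pf4 and Cd163 reached the filter, both lower. Each of the 2 was under 1 FPKM in both NeuN+ libraries. Cd163 had no call at a common sum or with quantile normalization, and Lyve1, Cd3e and Cd79a were listed at 0 in all 4 libraries.

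**Figure D3:**
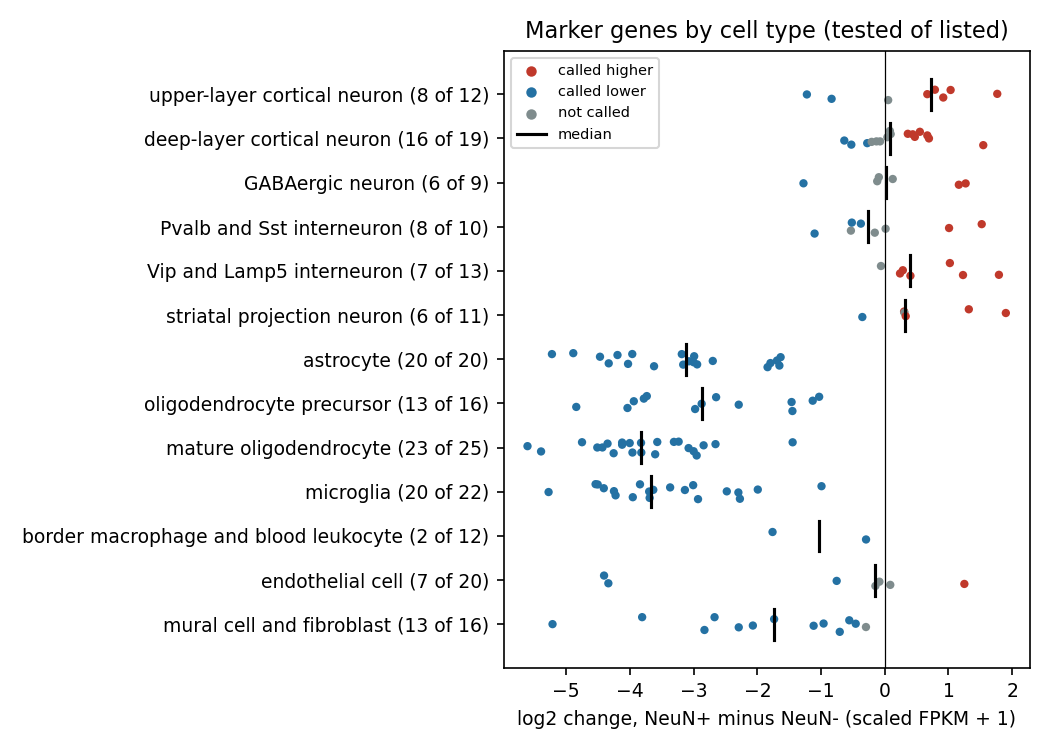
Log2 change (NeuN+ minus NeuN-, on scaled FPKM + 1) of every tested marker gene, with 1 row per cell type list and the numbers tested and listed in brackets. Black bars are medians. The 4 glial lists lie wholly to the left of 0, between medians of -2.87 and -3.82, and the neuronal lists straddle it.

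Promoters of the tested genes were read for short motifs of transcription factors. They were taken from RefSeq on GRCm38.p6 as 300 bases each, 250 before and 50 after the gene start, and 9670 tested protein-coding genes had one. Motifs were searched on both strands. Among cell type lists with at least 2 matches, the highest share relative to all promoters was that of the SOX motif ACAATGG in mature oligodendrocyte genes. It was present in 2 of 17 promoters (11.8%), against 1.95% of all. The ratio of these shares was 6.02. For the interferon response element in microglial genes (2 of 13 promoters) the ratio was 5.64. The SOX share is the highest of many, rests on 2 promoters and was not tested. Both promoters are printed because they have that share, 5′ to 3′ on the strand of the gene, with the motif in capitals.

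Hapln2 (chr3:88027462-88027761, minus strand): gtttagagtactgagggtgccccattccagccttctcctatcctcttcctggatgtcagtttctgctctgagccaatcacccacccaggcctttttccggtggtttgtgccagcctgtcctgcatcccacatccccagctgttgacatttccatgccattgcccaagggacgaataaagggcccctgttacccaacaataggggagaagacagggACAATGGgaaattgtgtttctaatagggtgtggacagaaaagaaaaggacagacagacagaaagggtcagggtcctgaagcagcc

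Ermn (chr2:58052815-58053114, minus strand): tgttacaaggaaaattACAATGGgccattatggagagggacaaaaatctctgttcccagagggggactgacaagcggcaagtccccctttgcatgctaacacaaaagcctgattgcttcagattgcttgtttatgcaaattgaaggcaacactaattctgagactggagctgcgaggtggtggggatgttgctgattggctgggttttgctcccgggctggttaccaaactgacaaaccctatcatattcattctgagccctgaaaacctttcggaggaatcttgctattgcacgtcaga

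The motif begins 35 bases before the start of Hapln2 and 234 bases before that of Ermn. Hapln2, a link protein of the matrix at nodes of Ranvier, stood at 2.02 and 1.68 in NeuN+ and 119 and 118 in NeuN-, 42-fold lower. Ermn (ermin), a cytoskeletal protein of oligodendrocytes, was at 3.39 and 2.7 against 59.2 and 68.4, 16-fold lower. Sox10, the gene of the lineage factor of oligodendrocytes, was at 0.183 and 0.0887 against 2.31 and 1.9, and its part in these changes was not tested.

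Over the larger classes, the PU.1-type Ets motif GAGGAAGT, of the kind bound by the microglial factor of Spi1, was in 6.07% of 494 promoters of genes at least 4-fold lower in NeuN+. It was in 0.855% of 117 promoters of genes at least 4-fold higher and in 2.82% of all. The AP-1 motif TGANTCA had shares of 8.70%, 3.42% and 4.86%, and the E-box CAGATG of NeuroD and Olig factors 17.2%, 12.8% and 11.6%. The cyclic AMP response element TGACGTCA was rarer in both classes (2.02% and 1.71%) than in all promoters (3.40%). Each of the motifs TTCAGCACC and GGACAGCGC, the parts of the site of the neuronal repressor REST, was in under 1% of each class. The CCAAT box was at 38.9%, 42.7% and 39.4%. The median GC content was 57.7% in the promoters of the lower class, 60.7% in those of the higher class and 60.7% in all, and its part in these shares was not tested. A match describes letters in the window and not a bound site.

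Beyond the 10 largest changes, the next 15 genes higher in NeuN+ were led by an extracellular matrix gene. Col6a1, which encodes an alpha chain of type VI collagen (chromosome 10, 76171537 to 76188789, mm9), was at 20.3 and 20.3 in NeuN+ and at 0.728 and 0.426 in NeuN-, 13.6-fold higher (SE 0.111 on the log2 scale, limma adjusted p = 3.75e-07). Rgs11, a regulator of G-protein signaling (chromosome 17, 26339907 to 26348269, mm9), was at 66.1 and 66.5 against 4.05 and 4.17, 13.2-fold higher. Miat, a nuclear long noncoding RNA, was at 51.5 and 48.2 against 3.21 and 3.01. Ahi1, a gene of the ciliary transition zone mutated in Joubert syndrome, was the most abundant of the 15, at 261 and 252 against 21.6 and 21 and 11.6-fold higher. Kcnh4, a potassium channel gene, was at 10.5 and 11.3 in NeuN+ and listed at 0 in both NeuN- libraries.

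Others of the 15 were the NMDA receptor gene Grin2a (12.3-fold), the zinc finger gene Zfp72 (10.5-fold), the cadherin gene Cdh9 (10.3-fold) and Fnbp1l (10.2-fold), a membrane-bending protein. They also held Tmem181a (9.49-fold), the receptor kinase gene Ltk (9.49-fold), Erc2 (9.02-fold), an organizer of the presynaptic active zone, a second collagen gene, Col19a1 (8.65-fold), and Spx (8.26-fold), the gene of the peptide spexin. The mean NeuN+ levels of these 9 ran from 7.32 for Spx to 36.1 for Tmem181a. The largest limma adjusted p among the 15 was that of Spx (9.11e-07).

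The next 15 genes lower in NeuN+ included known genes of astrocytes, microglia and oligodendrocytes. Litaf, an endosomal protein gene, and Anxa3, an annexin gene, were at 0.113 and 0.255 against 41.7 and 43.9 and at 0.767 and 0.586 against 58.7 and 62.2. Id3, an inhibitor of basic helix-loop-helix factors, was at 2.74 and 1.98 in NeuN+ and 109 and 109 in NeuN-, 33-fold lower (SE 0.248 on the log2 scale, limma adjusted p = 3.20e-06). Mertk, the receptor kinase with which astrocytes and microglia take up debris, was at 0.752 and 0.554 against 49.4 and 51.5. Trf (transferrin), made by oligodendrocytes, was at 35.6 and 34.4 against 922 and 1018 and Cmtm5 at 13.2 and 15.6 against 421 and 446, the highest NeuN- levels of the 15. Bcan, the proteoglycan brevican, and Slc38a3, a glutamine transporter of astrocytes, were 28.7-fold and 24.2-fold lower. Atp13a4, Fgd2, Itih3, Slc1a3, Gng11, Tlcd1 and Olfml1 completed the set, between 25.8-fold for Olfml1 and 36.5-fold for Atp13a4.

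Genes of the postsynaptic density were higher in NeuN+ almost without exception. The density is the protein scaffold that anchors receptors opposite the release site. Of 21 tested scaffold genes, 20 were higher and 1 lower, with a median log2 change of 1.07, against 35.9% of all features higher. Shank1, a master scaffold, was at 23.1 and 21.2 in NeuN+ and 5.54 and 4.23 in NeuN-, 3.95-fold higher. Sipa1l1, a Rap-GTPase regulator of spines, was at 10.3 and 10.4 against 2.55 and 2.67. The kinase genes Camk2a and Camk2b were 5.96-fold and 3.07-fold higher, with Camk2b at 29.8 and 28.7 against 9.31 and 8.43. The exception was Homer3 at 0.17 and 0.199 against 2.7 and 2.76, while Homer1 and Homer2 were 2.17-fold and 2.41-fold higher. Since Homer3 was under 1 FPKM in both NeuN+ libraries, the filter fixed its direction. Among the 20 higher genes 1 was under 1 FPKM in both NeuN- libraries. Homer3 shares its position with Ddx49, so their fragments may be split. Other genes of the list, among them Shank2, Shank3, Dlgap3, Agap2 and Iqsec2, stayed under 1 FPKM in every library.

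Synaptic adhesion genes, whose products bridge the cleft, followed the same direction at a lower median (0.82). Of 34 tested, 27 were higher, 1 lower and 6 not called. Among the 27 higher genes 2, Cntn5 being 1 of them, were under 1 FPKM in both NeuN- libraries. Contactins led the list, with Cntn5 at 11.4 and 10.8 in NeuN+ and 0.779 and 0.779 in NeuN- and Cntn4 at 23.6 and 24.6 against 3.45 and 3.56. They were 6.82-fold and 5.56-fold higher. Il1rapl1, a trans-synaptic receptor gene of the X chromosome, was at 16.4 and 18.1 against 3.63 and 3.04, and Cntnap4, a neurexin-like gene of interneurons, at 8.2 and 8.81 against 1.43 and 1.51. Cntn2, which oligodendrocytes express as well, was the 1 gene that was lower, 1.25-fold, at 2.21 and 2.36 against 3.28 and 2.94, and it was not called at a common FPKM sum. The list's median relative to all features rose from 0.85 to 1.43 with genes under 5 FPKM left out. Cntn1, by contrast, had 24.2 and 24.5 against 24.9 and 23.9 and was not called (limma adjusted p = 0.957); its sign turned with the scaling.

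Channels and receptors divided by subunit. Of 23 voltage-gated calcium and sodium channel genes 21 were higher and 1 lower (median 1.16), and of 57 potassium channel genes 33 were higher and 11 lower (median 0.36). The shares of all features were 35.9% higher and 39.6% lower. Cacna1b, the pore of the N-type calcium channel, was at 7.21 and 7.45 in NeuN+ and 0.917 and 1.02 in NeuN-. The inward rectifier gene Kcnj10, which buffers potassium in astrocytes, went the other way at 0.314 and 0.394 against 18.6 and 20.3, as did the microglial channel gene Kcnk13 at 0.909 and 0.883 against 10.3 and 11.1. Among 21 glutamate receptor genes 18 were higher and 3 lower. Grin2a was at 13.5 and 14.7 against 0.265 and 0.187 and Grin2c at 0.244 and 0.269 against 21.6 and 20.7, so subunits of 1 receptor lay 12.3-fold higher and 17.6-fold lower. Gabrr2, a GABA receptor rho subunit gene, was listed at 0 in both NeuN+ libraries and at 8.92 and 9.43 in NeuN-. How many channel and receptor calls had a direction fixed by the filter was not counted. Grin2a was under 1 scaled FPKM in both NeuN- libraries, and Grin2c, Kcnj10, Kcnk13 and Gabrr2 in both NeuN+ libraries.

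Second messenger enzymes showed the same division. Of 34 tested genes of cyclic nucleotide and calcium signaling 22 were higher, 9 lower and 3 not called (median 0.44), with 6 of the 9 under 1 FPKM in both NeuN+ libraries. The higher and lower shares were 64.7% and 26.5%, beside 35.9% and 39.6% of all features. Among the 22 higher genes 1 was under 1 FPKM in both NeuN- libraries. The protein kinase C gene Prkcd was at 0.267 and 0.26 in NeuN+ and 6.42 and 6.25 in NeuN-, 5.81-fold lower. Among calcium release channels, the ryanodine receptor genes Ryr1, Ryr2 and Ryr3 were 3.41-fold, 3.93-fold and 2.18-fold higher and the inositol trisphosphate receptor gene Itpr1 1.53-fold higher. Itpr2, the astrocytic receptor, was 5.09-fold lower at 0.342 and 0.307 against 5.96 and 5.53. Adcy1, the calmodulin-stimulated adenylyl cyclase, was at 15.8 and 15.1 against 3.52 and 3.16. The phosphodiesterase gene Pde8a was lowest in NeuN+ by fold, at 0.493 and 0.269 against 12.3 and 13.8. The gates did not overlap for any of these genes. Over all features this held for 42.1% on the higher and 45.5% on the lower side.

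In developmental pathways, ligands bind receptors that control transcription. In the TGF-beta and BMP list 6 of 23 tested genes were higher, 13 lower and 4 not called (median -0.68), with 6 of the 13 under 1 FPKM in both NeuN+ libraries. The higher and lower shares were 26.1% and 56.5%, beside 35.9% and 39.6% of all features. Among the 6 higher genes 1 was under 1 FPKM in both NeuN- libraries. The ligand gene Bmp4 was at 0.798 and 1.2 in NeuN+ and 12.3 and 10.6 in NeuN-, and Bmp7 at 0.143 and 0.284 against 5.25 and 4.54. Chrd (chordin), a secreted antagonist of these ligands, was higher, at 14.8 and 15.4 against 3.14 and 2.71 and 4.12-fold. Among receptors, Tgfbr1 was 6.15-fold lower at 1.22 and 1.2 against 13.3 and 11.9, and Acvr2a 4.11-fold higher at 5.94 and 7.0 against 0.756 and 0.872. Of the targets, the inhibitor genes Id1, Id3 and Id4 were 7.99-fold, 33-fold and 7.45-fold lower, with Id1 at 0.417 and 0.203 against 8.71 and 10.2. With genes under 5 FPKM left out, the median of the list turned to the NeuN+ side of that of all features, by 0.08.

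The Notch list had 3 of 18 tested genes higher, 8 lower and 7 not called (median -0.16), with 6 of the 8 under 1 FPKM in both NeuN+ libraries. The higher and lower shares were 16.7% and 44.4%, beside 35.9% and 39.6% of all features. Among the 3 higher genes 1 was under 1 FPKM in both NeuN- libraries. The ligand gene Jag2 was at 1.79 and 1.47 in NeuN+ and 0.0768 and 0.135 in NeuN-, and the ligand gene Dll1 at 1.35 and 0.967 against 4.1 and 3.15. The receptor gene Notch1 was 2.14-fold lower, at 0.148 and 0.176 against 1.64 and 1.33. Mfng, a sugar transferase that modifies the receptor, was listed at 0 in NeuN+ and at 1.58 and 1.28 in NeuN-. This median too turned with the 5 FPKM minimum, to 0.14 above that of all features. The Wnt list had 7 of 16 higher and 7 lower (43.8% each, beside 35.9% and 39.6% of all features), and 5 of the 7 lower genes were under 1 FPKM in both NeuN+ libraries. Dvl3 and the ligand gene Wnt10a were 2.11-fold and 1.96-fold higher, while the nuclear effectors Tcf7l2 and Lef1 were lower, with Tcf7l2 at 0.0603 and 0.0781 against 4.6 and 4.94 and Lef1 at 0.0229 and 0.0111 against 3.33 and 3.35. Of 12 tested Hippo genes 3 were higher and 5 lower (25% and 41.7%), the lower share being near that of all features. All 5 were under 1 FPKM in both NeuN+ libraries, and Amotl2, an angiomotin-like gene, was 4.07-fold lower.

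Transcription factor lists moved in opposite directions by unequal amounts. Of 20 tested neuronal factors 11 were higher, 1 lower and 8 not called (median 0.35), and of 21 tested glial factors 2 were higher, 17 lower and 2 not called (median -1.79), with 11 of the 17 under 1 FPKM in both NeuN+ libraries. Myt1l, a repressor of non-neuronal genes, was at 58.9 and 58.5 in NeuN+ and 20.4 and 20.4 in NeuN-, 2.79-fold higher, and Neurod2 at 9.84 and 8.48 against 3.69 and 3.52. Mef2a was the 1 neuronal factor that was lower, at 9.87 and 9.34 against 13.5 and 14.2, while Mef2c was 1.65-fold higher. Among glial factors Olig1 was at 3.84 and 3.96 against 78.1 and 80.9. The exceptions were Zfp488 and Nfix, 1.32-fold and 1.18-fold higher, Nfix without a call when FPKM were not scaled. Rest, the repressor of neuronal genes, was at 0.0376 and 0 against 1.08 and 1.33. Genes with a Zfp symbol, mostly zinc finger factors, leaned to NeuN+, with 126 of 286 higher and 80 lower (median 0.12). These are 44.1% and 28.0%, beside 35.9% and 39.6% of all features.

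Of 23 tested regulators of RNA processing, 14 were higher in NeuN+ (60.9%, beside 35.9% of all features), 6 lower and 3 not called (median 0.78). Among the 14 higher genes 1 was under 1 FPKM in both NeuN- libraries. The splicing factor genes Celf3 and Khdrbs2 were at 34.8 and 34 against 4.41 and 4.64 and at 14.4 and 13.3 against 1.31 and 1.35, 6.41-fold and 6.36-fold higher. Srrm3, a regulator of neuronal microexons, was 4.43-fold higher. Qk (quaking), which binds messages of myelin and astrocyte genes, was at 7.83 and 7.38 in NeuN+ and 52 and 50 in NeuN-, 6.05-fold lower. The muscleblind gene Mbnl1 was 1.58-fold lower and Ptbp3 1.37-fold lower. The list of the BAF chromatin remodeling complex had 7 of 23 higher (30.4%) and 8 lower (34.8%), near the shares of all features. Its subunits are exchanged when progenitors become neurons. Actl6b and Dpf1, subunits of the neuronal complex, were 1.66-fold and 1.71-fold higher, with Actl6b at 1.65 and 1.99 against 0.534 and 0.879. Of the 7 higher genes of this list 2 were under 1 FPKM in both NeuN- libraries, so the filter fixed their direction. Actl6b was under 1 scaled FPKM in both. Dpf3, another, did not reach the filter, with 0 listed for NeuN+ and FPKM of 1.41 and 0.75 in the NeuN- libraries. The progenitor counterpart of Actl6b, Actl6a, was 1.32-fold lower at 17.6 and 18.9 against 23.6 and 25.3, a call lost at a common FPKM sum. The pair of Ss18l1 and Ss18 was split likewise, with Ss18l1 1.62-fold higher and Ss18 2.85-fold lower, at 2.43 and 3.43 against 9.95 and 10.3.

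Collagen genes were mostly higher in NeuN+, while integrins were mostly lower. Of 18 tested collagen genes 12 were higher, 4 lower and 2 not called (median 1.08). Besides Col6a1, Col19a1 was at 18.7 and 18.3 in NeuN+ and 1.15 and 1.35 in NeuN-, Col4a2, a basement membrane chain, at 11.2 and 10.6 against 1.75 and 1.68, and Col11a1 at 3.33 and 3.12 against 0.209 and 0.141. In each of them both NeuN+ libraries lay above both NeuN- libraries, as in 42.1% of all features. The collagen counts leave out 1 symbol of another protein that matched the pattern, and of all features 35.9% were higher and 39.6% lower. Calls with a direction fixed by the filter were not counted for collagens. Col6a1 and Col11a1 were under 1 scaled FPKM in both NeuN- libraries, and Col1a2 and Col4a5 in both NeuN+ libraries. The collagen genes that were lower were Col9a3 at 0.867 and 1.15 against 14.7 and 16.1, the fibroblast gene Col1a2 at 0.155 and 0.0752 against 2.47 and 2.97, Col27a1 (1.74-fold lower), and Col4a5, listed at 0 in both NeuN+ libraries. The fibroblast gene Col1a1 was listed at 0 in all 4 libraries and Col3a1 at 0 in both NeuN+ libraries, and 0 of 13 tested mural and fibroblast genes were higher in NeuN+.

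Integrins, the receptors by which cells hold on to the matrix, had 2 of 11 tested genes higher and 9 lower (median -1.19). Of all features 35.9% were higher and 39.6% lower. How many of the integrin calls had a direction fixed by the filter was not counted. Itgb5 and Itgb2 were under 1 scaled FPKM in both NeuN+ libraries, and Itga8 in both NeuN- libraries. Itgb5 was at 0.943 and 0.531 in NeuN+ and 19.8 and 21.1 in NeuN-, 12.4-fold lower, and the leukocyte integrin gene Itgb2 at 0.431 and 0.447 against 7.15 and 8.36. Itga8 stood out at 5.09 and 6.31 against 0.151 and 0.119, 5.88-fold higher (limma adjusted p = 8.78e-07), beside Itga7 at 2.32 and 1.71 against 0.897 and 1.25, whose call was lost without NeuN- replicate 1 (limma adjusted p = 0.053). Of 5 tested laminin genes 1 was higher and 4 lower. Lamb1 was at 1.23 and 1.77 against 0.599 and 0.747, and Lamb2 at 0.0846 and 0.0411 against 5.47 and 4.84, so 2 beta chains of 1 family were divided between the gates.

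Lipid, glycogen and lysosomal genes were mostly lower in NeuN+, while 39.6% of all features were lower. Of 21 tested genes of myelin lipids and very long fatty acids 14 were lower, 2 higher and 5 not called (median -1.57). Among the 14 lower genes 2 were under 1 FPKM in both NeuN+ libraries. Ugt8a, which makes galactosylceramide, was at 1.24 and 1.03 in NeuN+ and 28.8 and 29.4 in NeuN-, Fa2h, which hydroxylates its fatty acid, at 0.567 and 0.551 against 12.8 and 11.5, and the ceramide synthase gene Cers2 at 35.5 and 35.6 against 276 and 288. Sptlc1, a subunit of the first enzyme of the pathway, was 1.78-fold higher, at 24.7 and 23.4 against 13.7 and 12.5. Of 18 tested glycogen genes 12 were lower, 5 higher and 1 not called (median -0.75). Among the 12 lower glycogen genes 4 were under 1 FPKM in both NeuN+ libraries. Ppp1r3g and Ppp1r3c, which target a phosphatase to glycogen, were at 0.435 and 0.67 against 25.7 and 25.9 and at 0.741 and 1.53 against 14.2 and 15.5. The regulatory subunits of phosphorylase kinase were split, with Phka2 2.23-fold higher at 14.2 and 13.3 against 5.65 and 5.58 and Phka1 4.45-fold lower at 1.88 and 1.62 against 10.7 and 11.8.

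Of 31 lysosomal genes, all of them tested, 24 were lower, 4 higher and 3 not called (median -1.31). The lower share was 77.4%, beside 39.6% of all features. Among the 24 lower genes 2 were under 1 FPKM in both NeuN+ libraries. The summed level of the 31 genes was 478 and 487 in NeuN+ and 1282 and 1298 in NeuN-. Ctss (cathepsin S) was at 7.14 and 6.69 in NeuN+ and 167 and 167 in NeuN-, and Cd68, a membrane protein of phagocytes, at 2.98 and 3.54 against 69 and 70.3. Microglial markers moved with them: 20 of 20 tested were lower, and their summed level was 64.6 and 70.7 in NeuN+ and 1136 and 1159 in NeuN-. Among the higher genes were Gla, Mcoln1 and Neu1, with Gla (alpha-galactosidase A) at 4.88 and 4.25 against 2.86 and 3.29. None of these 3 was called without scaling, and Gla also lost its call without NeuN+ replicate 1 (limma adjusted p = 0.054) or NeuN- replicate 1 (0.054).

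Gap junction genes had 4 of 5 tested lower, beside 39.6% of all features, and 1 of the 4 was under 1 FPKM in both NeuN+ libraries. Gjb6 (connexin 30) was at 4.09 and 4.05 against 107 and 116. Panx1, a pannexin, was 1.51-fold higher at 12.7 and 13.8 against 8.39 and 8.49. Of 234 solute carrier genes 81 were higher and 99 lower, near the shares of all features (35.9% and 39.6%), and at 2-fold or more 22 were higher and 55 lower, beside 10.1% and 14.6% of all features. Slc6a7, the proline transporter of glutamatergic terminals, was at 6.79 and 5.58 in NeuN+ and 0.484 and 0.271 in NeuN-, and Slc6a13, a GABA transporter of the meninges, at 0.196 and 0.458 against 16.6 and 18.5. Of 32 ABC transporter genes 8 were higher and 18 lower (25% and 56.25%, beside 35.9% and 39.6% of all features). Abcc8, the sulfonylurea receptor, was 3.59-fold higher and Abca1, which exports cholesterol, 5.71-fold lower.

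Immune genes were divided by function. Of 18 tested genes of MHC class I and the interferon response 11 were lower, 3 higher and 4 not called (median -0.85). The lower and higher shares were 61.1% and 16.7%, beside 39.6% and 35.9% of all features. Of the 11 lower genes 5 were under 1 FPKM in both NeuN+ libraries. Of the 3 higher genes 1 was under 1 FPKM in both NeuN- libraries. The class I gene H2-K1 was at 2.65 and 3.22 in NeuN+ and 25.9 and 27 in NeuN-, and its light chain gene B2m at 36.7 and 37.3 against 92.5 and 87.3. Ifit1, an interferon-induced gene, went the other way at 3.83 and 2.92 against 0.127 and 0.0777, while its neighbor Ifit3 was 4.85-fold lower at 2.67 and 2.18 against 14.4 and 16.9. Stat2, an interferon signal transducer, was 2.36-fold higher at 10.4 and 12.1 against 3.77 and 4.59. Of 12 Toll-like receptor genes only 4 reached the filter. All 4 were lower (median -1.78), beside 39.6% of all features, and how many of them passed through NeuN- alone was not counted.

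The complement list had 6 of 15 tested genes higher, 8 lower and 1 not called (median -0.61), that is 40% and 53.3%, beside 35.9% and 39.6% of all features. Of the 8 lower genes 6 were under 1 FPKM in both NeuN+ libraries, and of the 6 higher genes 1 was under 1 FPKM in both NeuN- libraries. The members that were higher are membrane proteins of neurons with complement control domains, Csmd1, Csmd2, Csmd3, Sez6, Sez6l and Susd4. Csmd1 was at 5.14 and 4.86 in NeuN+ and 0.554 and 0.51 in NeuN-, 3.92-fold higher, and Sez6 at 25.5 and 24.5 against 7.78 and 7.67. Components of the cascade were among the members that were lower. C1qb was at 14.4 and 16 against 209 and 208 and C1qc at 0.896 and 0.697 against 17.8 and 17.2. Sez6l2 was lower despite its family, 2.05-fold, at 9.92 and 10.4 against 22.4 and 21.3.

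Genes of general cell machinery were mostly lower in NeuN+, by small amounts, while 39.6% of all features were lower. Of 83 tested cytosolic ribosomal protein genes 60 were lower, 3 higher and 20 not called (median -0.47), and only 2 were lower by at least 2-fold. Rpl18 was at 74.7 and 68.1 in NeuN+ and 150.3 and 126 in NeuN-, while Rps18 was higher, at 221 and 208 against 161 and 150.3. Of 37 genes with an Nduf symbol, mostly of respiratory complex I subunits, 36 were lower and 1 was not called (median -0.66). Ndufa4, grouped here by its symbol alone, was at 514 and 492 against 1021 and 826. Of 38 proteasome genes 25 were lower and 8 higher (median -0.36). Relative to the median of all features, the medians of these 3 families stayed negative under each scaling (unscaled, common sum and quantile), between -0.21 and -0.65 over all symbols of the families' patterns.

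**Figure D4:**
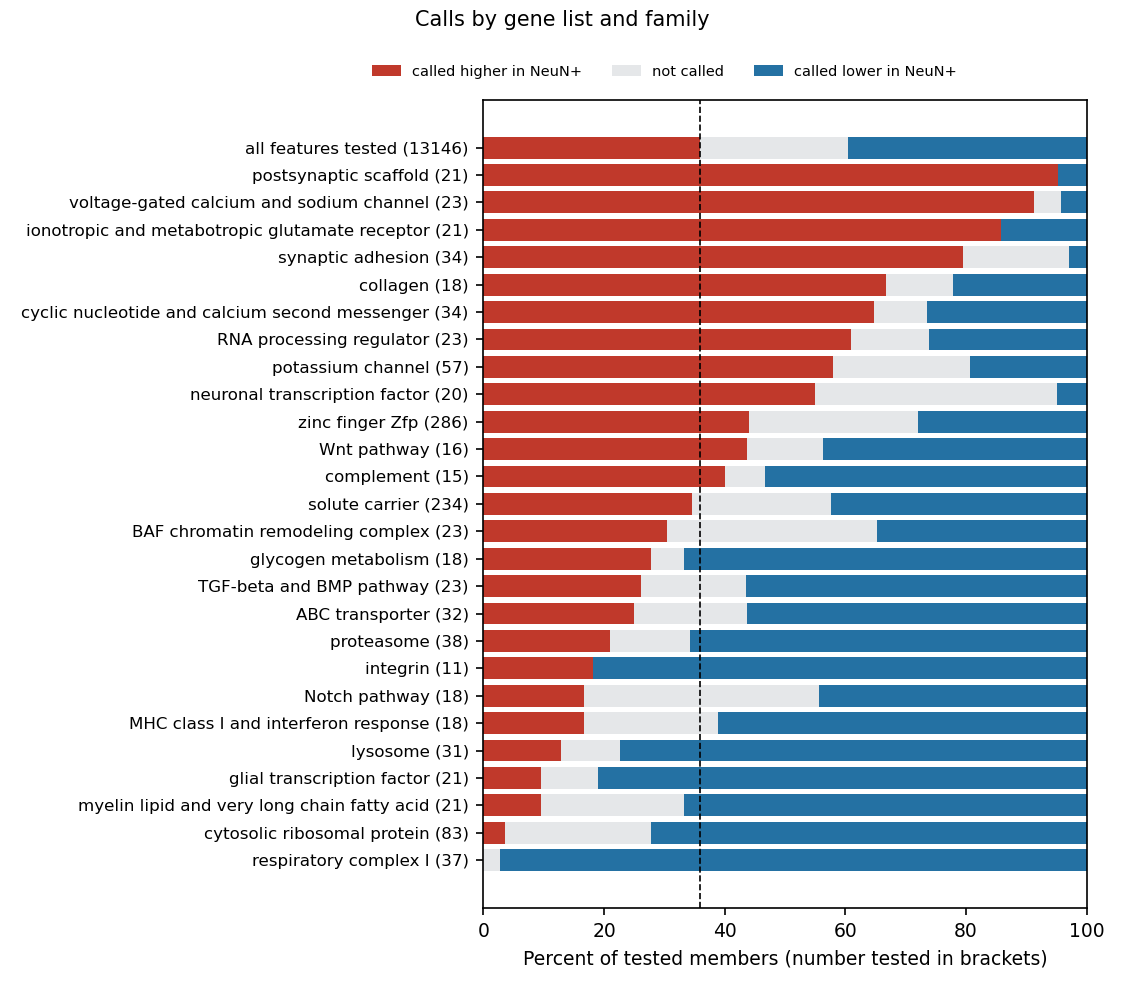
Share of tested members called higher in NeuN+ (red), lower (blue) or not called (grey), in percent, for 15 gene lists and 11 families, with all 13146 features in the top row and their share of higher calls (35.9%) as a dashed line. Postsynaptic scaffold genes lie at the higher end and complex I genes at the lower end.

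Of 20 tested genes of DNA replication and mitosis, 12 were lower in NeuN+ (60%), 3 higher (15%) and 5 not called, beside 39.6% and 35.9% of all features. The direction of 6 of the 12 was fixed by the filter, since they were under 1 FPKM in both NeuN+ libraries, among them Mcm3, Ccnb1 and Top2a. Mcm7, a helicase subunit, was at 6.75 and 5.08 in NeuN+ and 25.1 and 26.4 in NeuN-, and Mcm3 was listed at 0 in NeuN+ and at 1.56 and 1.38 in NeuN-. Ccne1 (cyclin E1) was 2.44-fold higher, at 17.3 and 18.7 against 7.18 and 6.39. Mki67 and Cdk1, which mark dividing cells, did not reach the filter.

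The direction of change varied with the length of the locus. Among protein-coding features the share called higher in NeuN+ was 26.6% for loci under 10 kb, 32.1% for 10 to 30 kb, 41.3% for 30 to 100 kb, 47.5% for 100 to 300 kb and 61.6% over 300 kb. The share called lower fell from 49.2% to 22.2% over the same classes, and the median log2 change ran from -0.23 to 0.46. The classes held 3151, 3925, 3283, 1283 and 414 features. The order was also present at fixed level. For features with a mean of 5 to 20 scaled FPKM, the share called higher was 32.2% in the shortest class and 65.6% in the longest, and for those of at least 20 it was 19.1% and 64.3%. Features of a class are not independent replicates, and no test was made. Long synaptic genes such as Cntn5 (1244 kb) and Csmd1 (1643 kb) belong to the longest class, and Rps18 (3.64 kb) to the shortest. Among long genes that were lower in NeuN+, Lama2 (636 kb), a laminin gene, was 3.58-fold lower and Itpr2 (394 kb) 5.09-fold lower.

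**Figure D5:**
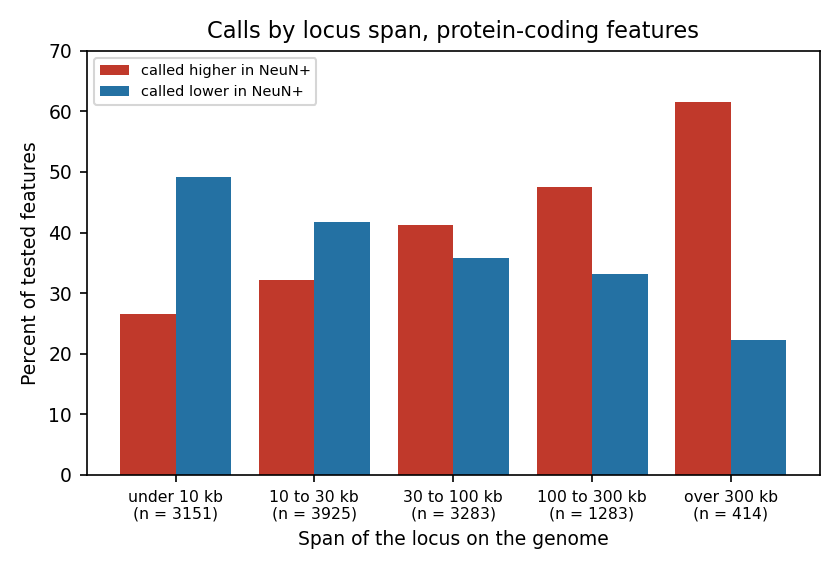
Percent of tested protein-coding features called higher (red) or lower (blue) in NeuN+, in 5 classes of the span of the locus, with the number of features under each class. The red bars rise from 26.6% to 61.6% and the blue bars fall from 49.2% to 22.2% with span.

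Long noncoding RNAs had 296 of 685 higher and 212 lower (median 0.16). These are 43.2% and 30.9%, beside 35.9% and 39.6% of all features. The X chromosome had 150 of 450 features higher (33.3%) and 185 lower (41.1%), close to the autosomes (36.0% and 39.5%). Among its largest changes, Frmpd3, a gene of a PDZ domain protein, was at 21.3 and 19.4 in NeuN+ and listed at 0 in both NeuN- libraries. Also higher were Ftx, a noncoding RNA of the X inactivation center, at 38.7 and 39.9 in NeuN+ and 4.61 and 4.77 in NeuN-, and Cstf2, a polyadenylation factor gene, at 37.5 and 37 against 4.55 and 5.39. On the lower side the microglial receptor gene Gpr34 was at 1.62 and 2.01 against 48.5 and 56.8 and the BMP antagonist gene Chrdl1 at 0.255 and 0.533 against 9.6 and 9.78. Xist stayed below the filter. Of 66 small nucleolar RNA features 16 were higher, 7 lower and 43 not called, and Snora81, inside Eif4a2, was at 73.7 and 57.4 in NeuN+ and listed at 0 in both NeuN- libraries. FPKM of such short features rest on few fragments and may hold those of the host gene.

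The 3218 features without a call included abundant genes with nearly equal levels. Xbp1, a transcription factor of the unfolded protein response, was at 54.9 and 55.6 in NeuN+ and 51.7 and 59.1 in NeuN-, and Med10, a Mediator subunit gene, at 83 and 77.8 against 78.2 and 82.9. Hist3h2a, Sec13, Mrpl53 and Rbbp7 were the other 4 of the 6 closest to no change. Each of the 6 was called in at least 1 scaling, with a log2 change of at most 0.29 in size, so equality of single genes depends on how libraries are scaled.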

How the data were processed

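The authors deposited gene-level FPKM, which the file headers show to be Cufflinks output. Tools named in the submitters' processing notes are Bowtie 1.1.1, TopHat2 2.1.1, Trim Galore 0.3.7, Cufflinks and Bismark, and the mouse build is mm9. Annotation, strand setting and prefrontal dissection are not given in the sources used. FPKM are not counts, and 51.3% to 54.2% of implied fragment numbers under 20 came within 0.05 of a whole number, so no count test was run.

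FPKM were multiplied by median-of-ratios factors, taken from 9102 features that reached 1 FPKM in each of the 8 RNA libraries. The model was limma 3.58.1 (R 4.3.3) on log2(scaled FPKM + 1), with a variance trend, 1 mean per group, 4 residual degrees of freedom and two-sided tests, and it was tested on simulated data. The pseudocount of 1 understates changes of low genes.

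The gene lists, families and motifs were chosen with earlier results of these data known. Named were ranks 11 to 25 by change in each direction (at least 5 scaled FPKM in the higher gate), the 10 most abundant protein-coding genes per gate, the 6 uncalled genes closest to no change at 50 scaled FPKM or more, per list at most 4 called members that moved as most did and 3 that moved the other way, the largest changes on the X chromosome, and Rbfox3. Other genes were named after their values were seen, and a few that the rule takes are not reported here. Families were matched by symbol, and symbols of other proteins were left out after values were seen. Coordinates of genes are those of the tables (mm9). Promoters are from RefSeq on GRCm38.p6, the first per symbol where there were several. Alternatives were other scalings, a pseudocount of 0.1, other filters, the prefrontal libraries alone, a replicate block, no variance trend and each library left out.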

Additional observations from a re-analysis of the deposited data

Results flagged for a closer look

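For 25 of the genes named above, the gate difference was called in both regions in opposite directions, and the difference between the regions was itself called in limma (an interaction contrast, which was called for 70.6% of 13139 features). Both regions come from 1 mouse. The values below are the prefrontal minus the cerebellar gate change on the log2 scale of scaled FPKM + 1.

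Genes that were higher in NeuN+ in prefrontal cortex and lower in NeuN+ in cerebellum included matrix and adhesion genes: Col6a1 (5.66), Col4a2 (3.30), Lamb1 (2.90), the integrin gene Itga8 (3.25) and the contactin gene Cntn4 (3.77). Itga8 was listed at 0 in both cerebellar NeuN+ libraries. Col6a1 stood at 0.676 ± 0.125 scaled FPKM in NeuN+ and 5.24 ± 0.360 in NeuN- of the cerebellum (SD, n = 2 libraries). Synaptic and signaling genes with this pattern were Erc2 (3.52), the proline transporter gene Slc6a7 (3.51), Csmd1 (2.74), Otof (2.19), Sipa1l1 (2.02), Gad2 (2.04), Penk (0.70) and the ligand gene Jag2 (1.63). The others were Fnbp1l (4.88), Zfp72 (4.41), the splicing factor gene Khdrbs2 (3.87), Ccne1 (1.97) and Gla (1.13). In cerebellum Otof, Jag2, Itga8 and Csmd1 had means under 1 scaled FPKM in both gates, so their cerebellar calls rest on low values. Their cerebellar NeuN- means were 0.348, 0.328, 0.620 and 0.741. Otof too was listed at 0 in both cerebellar NeuN+ libraries. The prefrontal calls of Penk and Gla were lost without scaling.

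Genes that were lower in NeuN+ in prefrontal cortex and higher in NeuN+ in cerebellum were led by the NMDA receptor gene Grin2c (-7.24). It stood at 135 ± 0.148 scaled FPKM in NeuN+ and 14.9 ± 0.431 in NeuN- of the cerebellum (SD, n = 2 libraries). The others were Snap25 (-1.45), Mef2a (-1.47), the ribosomal protein gene Rpl18 (-1.48), Ndufa4 (-1.32), Calm2 (-1.25) and Ppia (-1.12). With quantile normalization the prefrontal calls of Snap25 and Ppia were lost, and the prefrontal log2 change of Calm2 turned to 0.17.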

How the results depend on the processing

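With genes under 5 FPKM left out (8595 tested, so fewer genes), 6606 features were called, 2958 of them higher, with 838 at least 2-fold higher and 1218 at least 2-fold lower. Over the other alternatives the counts stayed within 1.5 times, and 88.3% or more of calls kept their direction and call; 4 features were called in the opposite direction without scaling, 1 at a common FPKM sum and 11 with quantile normalization. Leaving out 1 library kept 89.6% to 90.8%. A replicate block kept 98.3%. The deviations of same-numbered libraries correlated at 0.04 between the gates, so the numbers were not taken as pairs. Reversed log2 changes were, without scaling, Mrpl53 -0.23, Rbbp7 -0.23, Rsrp1 -0.22 and Sec13 -0.23. At a common sum they were Cntn1 0.21, Eif4a2 0.023, Hist3h2a 0.21, Med10 0.21 and Xbp1 0.21. With quantile normalization they were Calm2 0.17, Eif4a2 0.11, Hist3h2a 0.29 and Med10 0.23. The cause was not tested. List medians relative to all features reversed at the 5 FPKM filter for the Notch (0.14) and TGF-beta and BMP lists (0.080). With a pseudocount of 0.1 the medians of mural and fibroblast genes (-3.63), glial factors (-3.21), complement (-1.06) and collagens (1.98) grew by over 1.5 times. The pattern for ribosomal proteins, with kinases and pseudogenes, gave 8 higher and 62 lower of 94. All libraries come from 1 animal, the relative depth of the gates differed, and FPKM of low or short features rest on few fragments, which limits small differences.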
